A study of Arabidopsis thaliana with 10 samples.

Results

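The comparison described here is the step from 90 to 240 min of ethanol vapour in Arabidopsis thaliana inflorescences that express active KLU protein. It rests on 4 of the 10 arrays of the study, namely both wild-type KLU lines (3-1 and 4-3) at each of these times, chosen by their titles and paired by line. All 22746 probe sets that are not spiked controls were compared. RNA came from pooled inflorescence tissue with young flower buds. Every plant in the study was in the klu-2 background and carried 35S::AlcR together with AlcA driving either KLU or KLUmut, a mutant form of the protein that serves as the control. The wild-type construct was sampled in 2 lines at 0 min (before vapour), 90 min and 240 min, and the mutant construct in 2 other lines (1-5 and 3-2) at 90 and 240 min. Each line is an independent transformed line, so a group holds 2 arrays, and plants were pooled within an array. The 35S promoter is active in most tissues, so the induced protein is not limited to the cells that normally make KLU. The age of the plants is not given in the sources used here.

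KLU, also known as CYP78A5, is a cytochrome P450 that promotes the growth of leaves and floral organs, and plants that lack it make smaller petals and sepals. Its effect is thought to reach beyond the cells that express it, through a product that has not been settled. In the switch used here, the fungal regulator AlcR binds ethanol and turns on the AlcA promoter, so that vapour starts transcription of the transgene. The step from 90 to 240 min joins the longer presence of the protein with longer vapour and a later time of day. The mutant KLU arrays share the vapour and the elapsed time.

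Values are log2 intensities, in which 1 unit is a 2-fold difference. The median over all probe sets lay between 5.93 and 6.05 on the 10 arrays. Precision is limited by there being only 2 lines per construct. Of 12 floral organ identity markers, 0 were named by the gene table used here, so the tissue was not checked with them, and the KLU transcript itself was not named and is not analysed here. Of 22 pollen markers 8 were measured, and their mean level is given below beside the results it moves with.

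No probe set passed an adjusted p of 0.05 between 240 and 90 min (0% higher and 0% lower of 22746, limma with Benjamini-Hochberg adjustment over all of them). At an unadjusted p under 0.05 there were 3409 probe sets, of which 1852 were higher at 240 min (8.14%) and 1557 lower (6.85%). The smallest adjusted p was 0.0792, for BSMT1 and AT2G17850. Under an adjusted p of 0.15 there were 75 higher and 96 lower. All values below are therefore given as differences that did not pass the threshold. With variances moderated along a trend, 6 probe sets passed (3 higher and 3 lower), among them BSMT1 and AT2G17850 with an adjusted p of 0.0128 each and AT3G62730 with 0.0287.

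The 2 lines moved partly together. The changes had an SD of 0.43 log2 units over probe sets in line 3-1 and 0.42 in line 4-3, and their correlation across the 22746 probe sets was 0.33, a description in which probe sets are not independent. Line 3-1 correlated at 0.44 with mutant line 3-2 and at 0.003 with mutant line 1-5, while line 4-3 correlated at 0.23 and 0.29 with them. A probe set was higher in both wild-type lines in 6841 cases (30.1%) and lower in both in 6839 (30.1%). Past 1 log2 unit in both lines there were 61 higher (0.268%) and 65 lower (0.286%). In these 2 sets the smaller of the line changes was 1.01 just inside the limit and 1 just outside it.

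**Figure D1:**
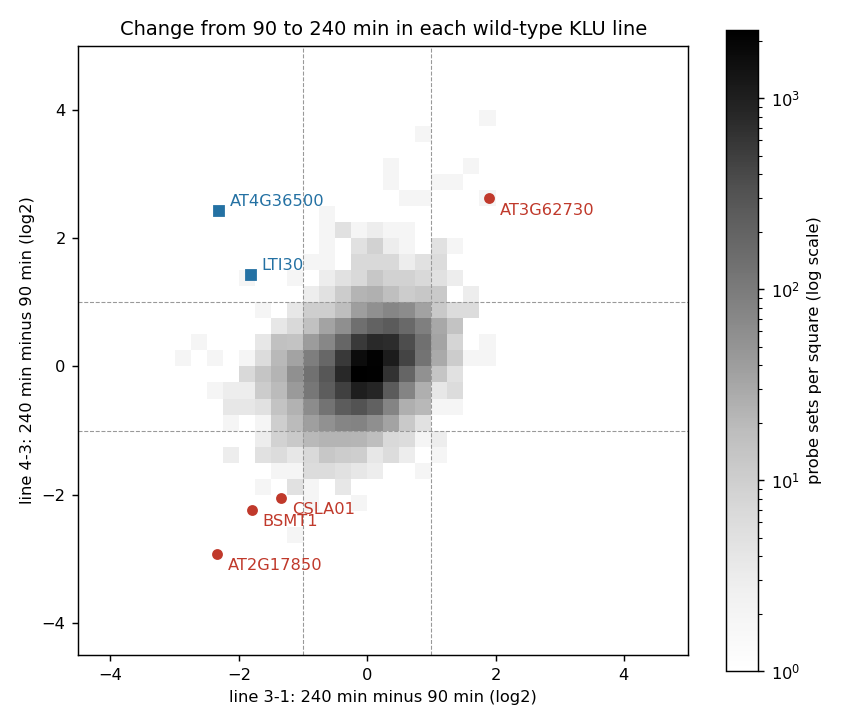
Change from 90 to 240 min in line 3-1 (x axis) against line 4-3 (y axis), both as log2 differences, over all 22746 probe sets; shading counts probe sets per square on a log scale and dashed lines mark 1 log2 unit. BSMT1, CSLA01 and AT2G17850 lie low and AT3G62730 high in both lines, while LTI30 and AT4G36500 lie low in line 3-1 and high in line 4-3.

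Among the genes lower at 240 min, BSMT1 had the smallest p. It encodes a methyltransferase that makes methyl salicylate and methyl benzoate, volatile esters. BSMT1 stood at 8.18 (line 3-1) and 8.16 (line 4-3) at 90 min and at 6.38 and 5.92 at 240 min. Both lines were lower at the later time, and the groups did not overlap. The difference was -2.02 log2 units (SE 0.15, n = 2 lines), which is 4.06-fold lower, with an adjusted p of 0.0792 by limma. The level before vapour was 9.74 and 9.44, so BSMT1 fell already by 90 min (-1.42, adjusted p 0.00632 by limma). From 0 to 90 min 464 probe sets rose (2.04%) and 314 fell (1.38%), and this earlier comparison shares the 90 min arrays with the later one. With mutant KLU the values were 8.80 and 8.59 at 90 min and 8.13 and 7.89 at 240 min, a smaller difference of -0.67 and -0.70 in lines 1-5 and 3-2.

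JMT encodes the related enzyme that makes methyl jasmonate. Its arrays read 6.79 and 7.22 at 90 min and 6.19 and 6.22 at 240 min, and 8.13 and 8.38 before vapour. The difference from 90 to 240 min was -0.80 (SE 0.14, n = 2 lines, adjusted p 0.144 by limma), lower in both lines. In each mutant line JMT differed by only -0.03. JMT was the only jasmonate gene measured of 28 listed. SWEET9, a sucrose transporter of nectaries, and CYP71B31 completed the measured genes of floral volatiles and nectar (3 of 11). SWEET9 read 8.99 and 5.07 at 90 min and 7.30 and 4.16 at 240 min, and CYP71B31 read 5.87 and 3.05 at 90 min and 2.96 and 3.08 at 240 min. Line 3-1 alone held the high 90 min values of both genes, so the list's median of -1.44 became -0.31 without the line 3-1 array at 90 min and -2.29 without that of line 4-3.

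Among cell wall genes, CSLA01, a cellulose synthase-like enzyme of the glucomannan-synthase family, read 7.32 and 7.60 at 90 min and 5.98 and 5.55 at 240 min. Its difference was -1.70 (SE 0.19, n = 2 lines, adjusted p 0.131 by limma), and its groups did not overlap. Before vapour CSLA01 read 9.64 and 9.34, and its fall by 90 min passed the test (-2.03, adjusted p 0.00481 by limma). In the mutant lines it was slightly higher at 240 min, by 0.33 and 0.30.

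TRICHOME BIREFRINGENCE-LIKE proteins acetylate wall polysaccharides. Of 22 measured TBL genes, 0 passed the threshold. At an unadjusted p under 0.05, 10 were lower (45.5%, against 6.85% of all probe sets) and 0 higher (against 8.14%). The median change of the family was -0.28 log2 units, against -0.01 over all probe sets, and 15 of 22 were lower in both lines (68.2%, against 30.1% of all probe sets). With mutant KLU 13 of the 22 were also lower in both lines and 1 higher (against 25.2% and 24.3% of all probe sets), with a median of -0.14. TBL45 read 8.14 and 9.13 at 90 min and 7.30 and 7.78 at 240 min, a difference of -1.09 (SE 0.17, n = 2 lines, adjusted p 0.144 by limma). TBL26 read 8.75 and 8.57 and then 7.43 and 7.75, a difference of -1.07, after 10.05 and 9.69 before vapour.

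Endo-glucanases of glycosyl hydrolase family 9 trim cellulose and related glucans. Of 15 measured, 13 were lower in both lines (86.7%, against 30.1% of all probe sets) and 0 higher in both, and 6 were lower at an unadjusted p under 0.05 (40%, against 6.85%), with 0 higher. With mutant KLU 6 of the 15 were lower in both lines and 0 higher. GH9B5 differed by -1.04 and GH9B7 by -0.84, with similar values in both lines. GH9B5 was also lower in both mutant lines, by 0.41 in line 1-5 and 0.88 in line 3-2. GH9B8 read 5.61 and 5.37 at 90 min and 4.17 and 4.46 at 240 min, after 7.75 and 6.81 before vapour. Its mutant lines went opposite ways, by 0.49 in line 1-5 and -0.96 in line 3-2. The 9 measured xyloglucan endotransglucosylases (XTH), which cut and rejoin xyloglucan, had 0 members at an unadjusted p under 0.05 and a median of -0.24, which ran from -0.08 without the line 4-3 array at 90 min to -0.36 without that of line 3-1. Of the 6 measured genes on the list of wall polysaccharide enzymes, 5 were lower in both lines (83.3%, against 30.1% of all probe sets). At an unadjusted p under 0.05, 3 were lower (50%, against 6.85%), namely CSLA01, TBL26 and GH9B8.

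Expansins loosen walls during growth and did not move as one. Of 11 measured, 2 were higher and 4 lower in both lines, with a median of -0.16 that became -0.32 without the line 4-3 array at 240 min and 0 without that of line 3-1. EXPA20 rose from 0 to 90 min by 3.04 (adjusted p 0.0005 by limma) and read 8.77 and 9.04 at 90 min and 9.43 and 9.58 at 240 min. EXLA1 had risen by 2.04 at 90 min (adjusted p 0.0211 by limma) and then read 9.22 and 9.25 at 90 min against 8.94 and 7.58 at 240 min. With mutant KLU at 90 min, EXPA20 read 5.78 (line 1-5) and 7.45 (line 3-2), and EXLA1 9.68 and 9.55. EXLA1 was also lower at 240 min in both mutant lines, by 0.60 and 0.35.

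SWEET proteins transport sugars across membranes, and no member of the family passed the threshold. Of 14 measured, 5 were lower at an unadjusted p under 0.05 (35.7%, against 6.85% of all probe sets) and 0 higher. In both lines 10 were lower (71.4%, against 30.1%) and 1 higher, and the median was -0.59. SWEET17, a fructose transporter of the vacuole, differed by -0.51 in line 3-1 and -1.23 in line 4-3. SWEET1 differed by -0.70 and -0.53, and SWEET11 by -0.84 and -0.45. With mutant KLU 5 of the 14 were higher in both lines and 5 lower, with a median of -0.05. SWEET1 differed there by 0.43 and 0.03, and SWEET9 by -0.87 and -0.18.

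**Figure D2:**
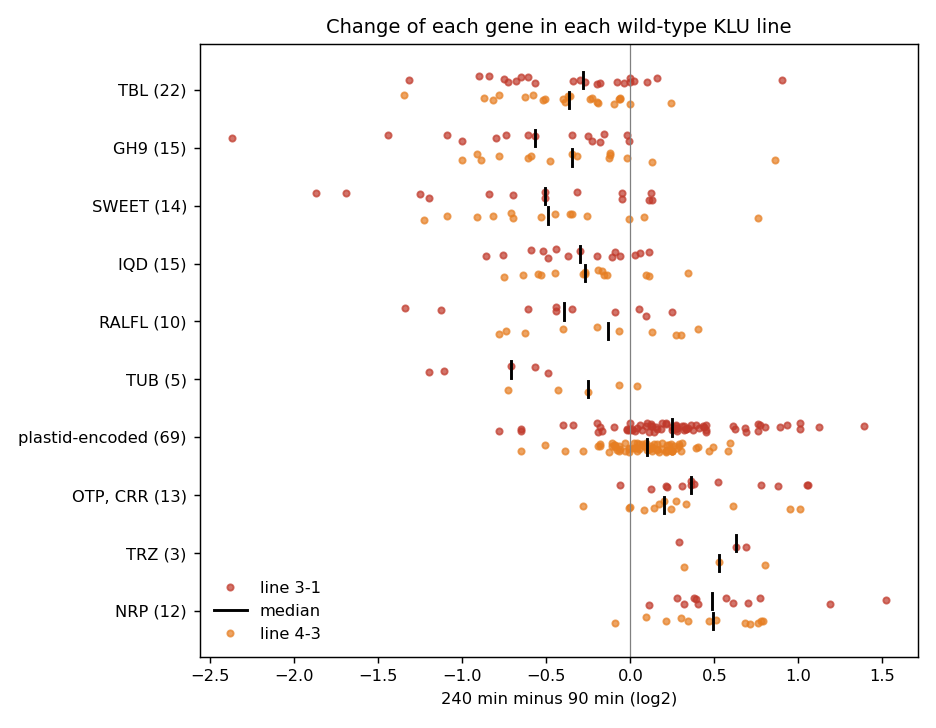
Log2 change from 90 to 240 min of each measured gene of 10 groups, in line 3-1 and line 4-3; black bars mark the median of a line and numbers in brackets count genes. The TBL, GH9, SWEET, IQD, RALFL and TUB medians lie below 0 in both lines, and the plastid-encoded, OTP and CRR, TRZ and NRP medians above 0.

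IQ-domain (IQD) proteins bind calmodulin and several associate with microtubules. Of 15 measured, 6 were lower at an unadjusted p under 0.05 (40%, against 6.85% of all probe sets) and 0 higher, with a median of -0.24 that became -0.36 without the line 4-3 array at 90 min. With mutant KLU 5 were higher in both lines and 2 lower. The gene iqd21 read 6.06 and 6.39 at 90 min and 5.20 and 5.75 at 240 min, a difference of -0.75. With mutant KLU iqd21 read 7.01 on both arrays at 90 min and 7.09 and 6.97 at 240 min. IQD26 differed by -0.44 and -0.53 in the wild-type lines and by 0.19 and 0.32 in the mutant lines. All 5 beta-tubulins had negative changes, 4 of them in both lines (80%, against 30.1% of all probe sets). At an unadjusted p under 0.05, 2 were lower (40%, against 6.85%). TUB7 read 9.22 and 9.63 at 90 min and 8.65 and 8.90 at 240 min. The tubulin median was -0.64, but -0.22 without the line 3-1 array at 240 min.

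TRM proteins recruit the TON1 complex to microtubules. Of 15 measured TRM genes 3 were lower at an unadjusted p under 0.05 (20%, against 6.85% of all probe sets) and 0 higher. In both lines 7 were lower (46.7%, against 30.1% of all probe sets) and 1 higher. With mutant KLU 3 were lower in both lines and 3 higher. TRM31 differed by -0.75 and -0.72 in the wild-type lines. RALF-like genes encode secreted peptides that act on wall-associated receptor kinases. Of 10 measured RALFL genes, 4 were lower at an unadjusted p under 0.05 (40%, against 6.85% of all probe sets). They were RALFL24, RALFL33, RALFL34 and RALFL32, by 0.38 to 0.68 log2 units. In both lines 5 were lower (50%, against 30.1%) and 2 higher (20%, against 30.1%). With mutant KLU 4 were lower in both lines and 2 higher. The RALFL median was -0.42, but -0.01 without the line 3-1 array at 90 min.

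Some genes on the lower side had been high at 90 min and low before vapour. AT2G17850 read 3.21 and 3.41 before vapour, 5.71 and 6.70 at 90 min and 3.37 and 3.78 at 240 min. It rose by 2.90 to 90 min (adjusted p 0.00169 by limma) and was 2.63 log2 units lower again at 240 min (SE 0.21, n = 2 lines, adjusted p 0.0792 by limma). Mutant arrays stayed between 3.18 and 3.65 at both times. UGT85A2, a UDP-glycosyltransferase, read 5.17 and 6.18, then 7.16 and 8.88, then 5.94 and 6.91 at the 3 times. Its rise by 90 min was 2.35 (adjusted p 0.0044 by limma), and its later difference was -1.60 (SE 0.21, n = 2 lines, adjusted p 0.131 by limma). With mutant KLU UGT85A2 read 6.95 (line 1-5) and 6.43 (line 3-2) at 90 min. Both mutant lines were also lower at 240 min, by 0.30 and 0.66. With wild-type KLU AT5G19730 likewise rose and fell, at 7.46 and 7.38, then 8.76 and 9.11, then 7.43 and 7.18. For each of these genes the rise and the later fall share the 90 min arrays.

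GH3.3 joins auxin to amino acids, which removes it from the active pool. GH3.3 read 7.55 and 7.93 before vapour, 8.72 on both arrays at 90 min, and 7.71 and 7.58 at 240 min. It rose to 90 min by 0.98 (adjusted p 0.0427 by limma), and the later difference was -1.07 (SE 0.18, n = 2 lines, adjusted p 0.144 by limma). With mutant KLU GH3.3 read 9.15 (line 1-5) and 8.51 (line 3-2) at 90 min. Both mutant lines were also lower at 240 min, by 0.91 and 0.42. Of 5 measured GH3 genes 3 were lower in both lines (60%, against 30.1% of all probe sets), each at an unadjusted p under 0.05 (against 6.85%). With mutant KLU 3 of the 5 were also lower in both lines (against 25.2% of all probe sets) and 0 higher. The family's median was -0.41 with wild-type KLU and -0.265 with mutant KLU. On the auxin list, GH3.3 and GH3.17 were the 2 of 11 measured genes at that level, and the list's median was -0.03, which ran from -0.10 without the line 3-1 array at 240 min to 0.10 without that of line 4-3. UDP-glycosyltransferases (UGT), which attach sugars to hormones and secondary metabolites, had 7 of 47 members lower at an unadjusted p under 0.05 (14.9%, against 6.85% of all probe sets) and 0 higher. With mutant KLU 13 of the 47 were lower in both lines and 5 higher. UGT78D1, which adds rhamnose to flavonols, read 8.46 and 8.58 at 90 min and 7.63 and 7.81 at 240 min.

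**Figure D3:**
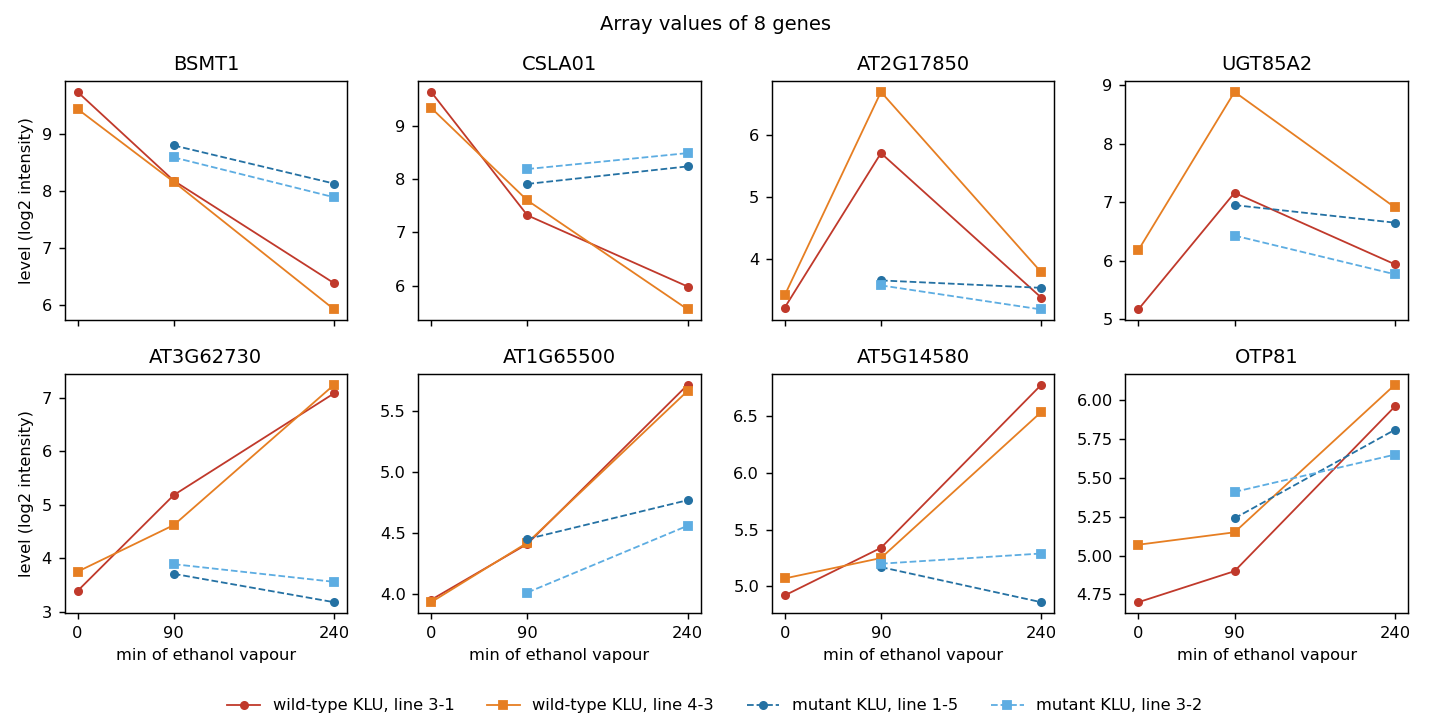
Log2 intensity of 8 genes (y axis) against minutes of ethanol vapour (x axis), with 1 point per array and 1 line per transformed line, wild-type KLU solid and mutant KLU dashed. With wild-type KLU, BSMT1 and CSLA01 are lower at each later time, AT2G17850 and UGT85A2 are highest at 90 min, and the lower row is highest at 240 min; with mutant KLU, CSLA01 is higher at 240 than at 90 min, by 0.33 and 0.30.

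On the higher side, AT3G62730 had the largest difference of the 12 named by p. It read 5.18 and 4.62 at 90 min and 7.08 and 7.24 at 240 min, after 3.39 and 3.75 before vapour. The difference was 2.26 (SE 0.23, n = 2 lines, adjusted p 0.131 by limma), 4.79-fold, and the groups did not overlap. With mutant KLU it stayed between 3.18 and 3.89. AT1G65500 had the smallest p among the named higher genes and read 4.41 and 4.42 at 90 min and 5.72 and 5.67 at 240 min. Both mutant lines were also higher for AT1G65500, by 0.32 in line 1-5 and 0.55 in line 3-2. AT5G14580 read 5.34 and 5.25 and then 6.78 and 6.54, while its mutant arrays stayed between 4.86 and 5.29. The 12 higher genes of smallest p differed by 1.00 to 2.26 log2 units and the 12 lower genes by 0.93 to 2.63. None of these 24 had overlapping arrays, which choosing them by p in the same comparison favours. Over all probe sets the arrays did not overlap for 19.2% on the higher side and 16% on the lower.

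The next 3 groups (NRP, OTP with CRR, and TRZ) were chosen after their values had been seen to be high, so their counts are a description that the choice itself shaped and support nothing about such genes. NRP genes encode subunits of nuclear RNA polymerases. Of 12 measured, 11 were higher in both lines (against 30.1% of all probe sets) and 0 lower in both, and 8 were higher at an unadjusted p under 0.05 (against 8.14%), with a median of 0.51. With mutant KLU 6 of the 12 were higher in both lines and 1 lower, with a median of 0.12. NRPE7, a subunit of polymerase V, read 5.71 and 5.93 at 90 min and 7.23 and 6.69 at 240 min. NRPD7, of polymerase IV, differed by 0.95, and NRPB7, of polymerase II, by 0.64. NRPA1 and NRPA2, the large subunits of polymerase I, differed by 0.59 and 0.54.

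OTP and CRR genes encode pentatricopeptide repeat proteins, many of which edit or process RNA in chloroplasts and mitochondria. Of 13 measured, 10 were higher in both lines (against 30.1% of all probe sets) and 1 lower, and 5 were higher at an unadjusted p under 0.05 (against 8.14%). With mutant KLU 9 of the 13 were also higher in both lines (against 24.3% of all probe sets) and 3 lower, with a median of 0.18. OTP81 read 4.90 and 5.15 at 90 min and 5.96 and 6.10 at 240 min, a difference of 1.00 (SE 0.14, n = 2 lines, adjusted p 0.131 by limma). It was also higher in both mutant lines, by 0.57 in line 1-5 and 0.24 in line 3-2. The wild-type median of the group was 0.31, but 0.18 without the line 3-1 array at 240 min and 0.50 without that of line 4-3. All 3 TRZ genes, for the enzyme that trims the 3′ end of transfer RNA precursors, were higher in both lines, by 0.58 for TRZ1, 0.74 for TRZ3 and 0.30 for TRZ4, and 1 of them was higher in both mutant lines.

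No transcript encoded in the plastid passed the threshold. Of 69 measured, 36 were higher in both lines (52.2%, against 30.1% of all probe sets) and 3 lower, with a median change of 0.14 that became 0.26 without the line 4-3 array at 240 min. At an unadjusted p under 0.05 only 3 of the 69 were higher (4.35%, below the 8.14% of all probe sets) and 0 lower. With mutant KLU 15 were higher in both lines and 20 lower. The median change was 0.25 in line 3-1 and 0.10 in line 4-3, and it was 0.03 with mutant KLU. Mean levels were 9.58 and 9.81 before vapour, 8.85 and 9.17 at 90 min and 9.11 and 9.26 at 240 min. PORB, a nuclear gene for a light-dependent enzyme of chlorophyll synthesis, read 9.66 and 9.48 at 90 min and 10.57 and 10.52 at 240 min. With mutant KLU PORB was also higher at 240 min, by 1.1 in line 1-5 and 0.59 in line 3-2.

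Metabolic and transport genes on the higher side included NRT2.5, a high-affinity nitrate transporter, which read 4.12 and 4.38 at 90 min and 5.19 and 5.47 at 240 min. Its difference was 1.08 (SE 0.16, n = 2 lines, adjusted p 0.131 by limma). PYRB, of pyrimidine synthesis, differed by 0.71, and IGPD, of histidine synthesis, by 0.62. These 3 genes were taken from the 20 of smallest p per direction that carry a symbol, a choice made after values were seen.

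CYP78A9, a relative of KLU in the same P450 family, also promotes organ growth. It read 4.75 and 4.58 before vapour, 5.78 and 5.70 at 90 min and 4.98 and 5.20 at 240 min. CYP78A9 rose to 90 min by 1.07 (adjusted p 0.0134 by limma) and the later difference was -0.65 (SE 0.14, n = 2 lines, adjusted p 0.175 by limma). In the mutant lines it differed by -0.06 and -0.08. The other measured genes of organ growth were ARL, an auxin-inducible promoter of organ size, at 0.82, and NGA1 to NGA4, regulators of lateral organ shape, at -0.32, -0.26, -0.23 and -0.29. ARL differed by 0.16 in line 3-1 and 1.49 in line 4-3, and by -0.56 and 0.20 in mutant lines 1-5 and 3-2.

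The 61 higher and 65 lower probe sets were selected by their change in the wild-type lines, so their wild-type values are a description. Over the 61, the array medians were 4.69 and 4.99 at 90 min and 6.23 and 6.96 at 240 min. The same 61 had medians of 5.17 (line 1-5) and 4.74 (line 3-2) at 90 min with mutant KLU, and 4.97 and 5.92 at 240 min. The median of the changes of single probe sets, which is not the difference of these medians, was -0.15 in mutant line 1-5 and 0.83 in line 3-2. Both mutant lines were higher for 19 of the 61 (31.1%, against 24.3% of all probe sets), and 1 was past 1 log2 unit in both, as 0.0572% of all probe sets were.

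Over the 65 lower probe sets the wild-type medians were 8.46 and 8.88 at 90 min and 6.93 and 7.31 at 240 min. Mutant medians were 9.02 and 8.60 at 90 min and 8.53 and 8.42 at 240 min. The median of their single changes was -0.30 in mutant line 1-5 and -0.51 in line 3-2. Both mutant lines were lower for 44 of the 65 (67.7%, against 25.2%), and 5 were past 1 log2 unit in both, as 0.0484% of all probe sets were.

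**Figure D4:**
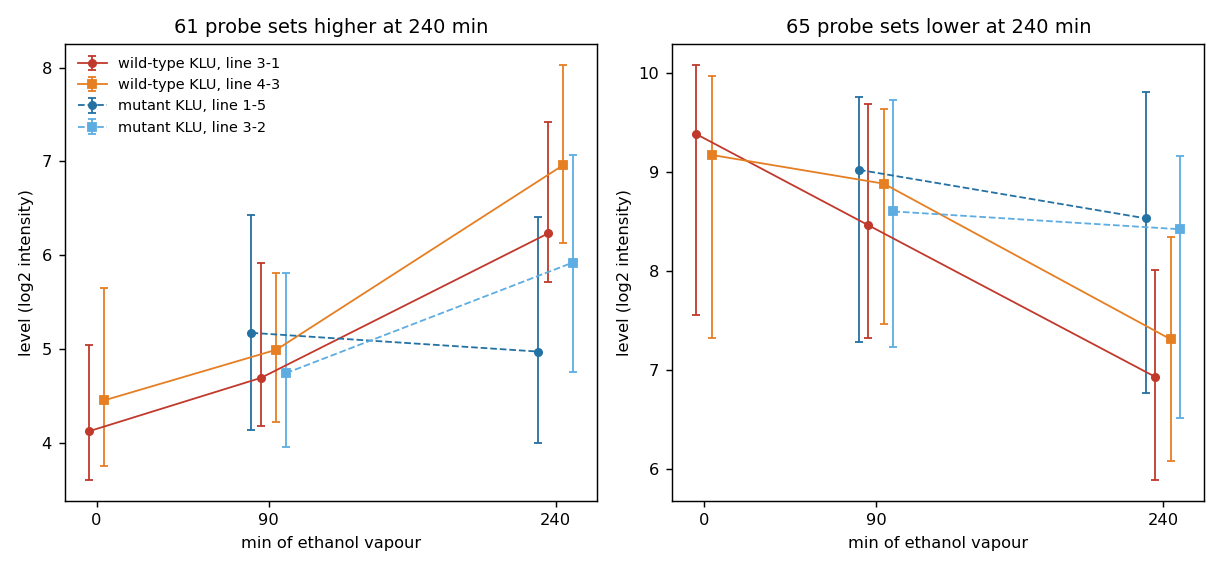
Median log2 intensity with the quartiles as bars, over the 61 higher (left) and 65 lower (right) probe sets past 1 log2 unit in both wild-type lines, against minutes of ethanol vapour, for each transformed line. Mutant line 3-2 has a higher median at 240 min on the left, 5.92, while mutant line 1-5 is at 4.97.

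Of the 61, 31 are named. AT5G52760 had the largest change, 3.73, with 4.55 and 3.41 at 90 min and 7.16 and 8.25 at 240 min, and AT5G52750 had 2.99. In mutant line 1-5 they differed by -0.88 and -0.76, and in mutant line 3-2 by 2.57 and 1.77. The mutant lines thus held opposite directions for both genes.

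The change with wild-type KLU was compared with that with mutant KLU in the same fit. For this difference 0 of 22746 probe sets passed (0% higher and 0% lower), the smallest adjusted p was 0.957, and 1084 had an unadjusted p under 0.05 (2.3% higher and 2.47% lower with wild-type KLU). The mutant comparison itself had 0 passing (0% either way) and 888 at an unadjusted p under 0.05 (2.1% higher and 1.81% lower). For AT3G62730 the difference was 2.69 (SE 0.32), for AT2G17850 -2.38 (SE 0.29), for CSLA01 -2.01 (SE 0.27) and for BSMT1 -1.33 (SE 0.21), each with n = 2 lines per construct and an adjusted p of 0.957 by limma. Over all probe sets, 4.59% were higher in both wild-type lines and lower in both mutant lines, and 4.05% the reverse. Without either mutant array of line 1-5, the mutant change is that of line 3-2 alone, so such a fit holds no spread from the mutant lines.

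**Figure D5:**
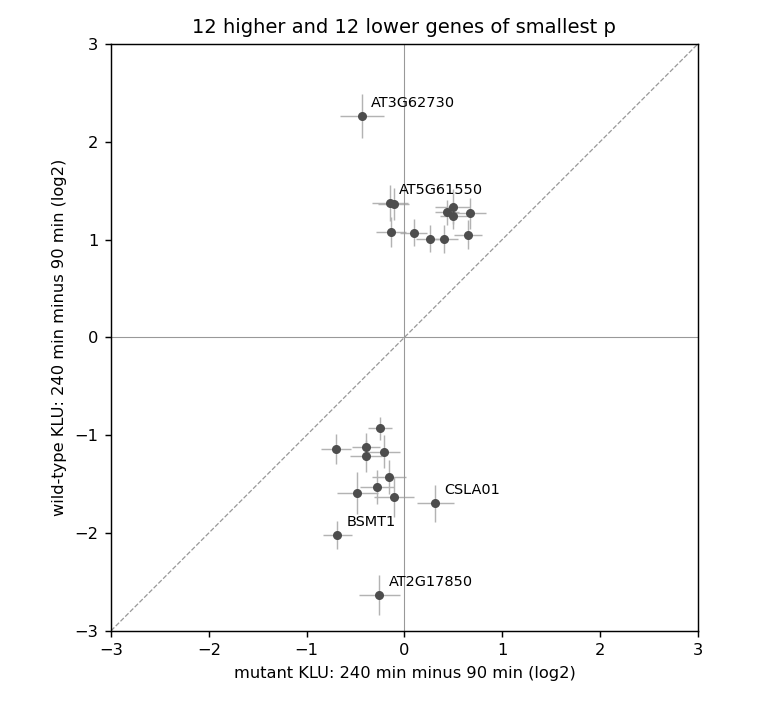
Log2 change from 90 to 240 min with mutant KLU (x axis) and with wild-type KLU (y axis) for the 12 higher and 12 lower genes of smallest p in the wild-type comparison; bars are standard errors and the dashed line marks equal change. The genes were chosen by their wild-type values, and AT3G62730 (2.26) and CSLA01 (-1.70) lie on the other side of 0 with mutant KLU.

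The wild-type lines disagreed strongly for 19 probe sets (0.0835%), which were past 1 log2 unit in opposite directions. In 15 of them line 3-1 was lower and line 4-3 higher at 240 min, and in 4 the reverse. AT4G36500 read 7.0 and 4.95 at 90 min and 4.69 and 7.37 at 240 min. LTI30, a dehydrin of cold and drought responses, read 7.45 and 5.63 and then 5.64 and 7.05. The early stress regulators were split as well: STZ, a zinc finger repressor, differed by -0.97 in line 3-1 and 4.49 in line 4-3, and WRKY53 by -2.54 and 0.45. Pollen markers also differed between lines. In line 3-1 they averaged 6.16 after 90 min of vapour and 5.48 after 240 min. In line 4-3 the averages were 5.00 and then 5.03. Over the 8 pollen markers, 0 passed the threshold, and 1 was lower at an unadjusted p under 0.05 (12.5%, against 6.85% of all probe sets). Their median was -0.65 in line 3-1 and 0.02 in line 4-3. In the uninduced arrays their mean level was 5.16 and 4.58. Their part in the results above was not tested, and fewer cells of a type and less RNA per cell cannot be told apart in such pooled tissue.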

How the data were processed

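The members, gene lists and tests were chosen with earlier results of these data known. Array values are on a log2 scale as deposited; RMA is the tool that the submitters' processing notes name, with no version stated. These intensities were not normalized further. Growth was on soil, at 22 °C and a day of 16 h light to 8 h darkness, per the labels. No label gives a batch or scan date.

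Of 22810 probe sets, 64 controls were left out. The gene table named 1 gene for 13513 of the 22746 tested, several for 503 and none here for 8730. RefSeq (TAIR10.1) loci matched 13436. Plastid genes were found by RefSeq's own plastid locus names. No mitochondrion-encoded gene was matched. Sequences and promoters were not used here.

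limma 3.58.1 in R 4.3.3 fitted group means over all 10 arrays with the transformed line as a block, since the same line was sampled at each time (across probe sets, the difference between lines correlated between times at 0.475 to 0.633 with wild-type KLU and at 0.348 with mutant KLU). Tests were two-sided, with moderated variances and Benjamini-Hochberg adjustment over 22746 probe sets at 0.05. Scripts were tested on simulated data. The block takes out the mean difference between the 2 lines of a construct. P-values therefore rest on how far the changes over time differed between those lines. That spread was pooled over all 10 arrays (3 residual degrees of freedom) and moderated over probe sets (3.55 prior degrees of freedom).

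Named genes were the 12 higher and 12 lower of smallest p, since none passed, up to 3 per list by smallest p, and CYP78A9, BSMT1, CSLA01, AT3G62730 and PORB. The 20 genes with a symbol of smallest p in each direction, the members of families and of the sets past 1 log2 unit, and the genes of opposite lines were added after values were seen. The text may name fewer. There were 19 lists of 426 genes and 20 families by symbol, 3 of them (NRP, OTP with CRR, TRZ) chosen after values were seen. Where a gene had several probe sets, the one with the highest mean stood for it in list counts. Figures were drawn with matplotlib 3.10.9.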

Additional observations from a re-analysis of the deposited data

Results flagged for a closer look

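For 8 of 92 named genes (8.7%) both wild-type lines went one way from 90 to 240 min and both mutant lines the other way. Over all probe sets 4.59% were higher in both wild-type lines and lower in both mutant lines, and 4.05% the reverse, so the share among the named genes is near that background and is not a result about them. The test of the difference gave an adjusted p of 0.957 by limma for each of the 8, so none of these differences passed. The wild-type change minus the mutant change was 2.69 log2 units for AT3G62730 and 1.21 for AT3G14510, a gene named by locus only. It was 0.60 for SAMTL. On the lower side it was -2.01 for CSLA01, -1.12 for HOS3-1, -1.01 for TRM31, -0.97 for DRT100 and -0.70 for ALDH2C4, an aldehyde dehydrogenase. ALDH2C4 and SAMTL were higher or lower in the mutant lines by at most 0.23 log2 units.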

How the results depend on the processing

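For wild-type KLU 240 against 90 min the count of passing probe sets was 0 with no replicate block (2313 at an unadjusted p under 0.05, against 3409). It was also 0 with only the wild-type arrays or only the 4 compared arrays, after quantile normalization and after median centring. Requiring a change of at least 1 log2 unit could only give 0, since it filters the 0 that passed. The count was 6 with trended and robust variances. It was 1 (lower, BSMT1) when dim probe sets, those at or under the median level, were left out, where the smaller number of tests plays a part. Leaving out 1 array leaves 1 array in its group, so no counts are given for such fits. Without either array of mutant line 1-5, the line block takes up the other one. The mutant change is then that of line 3-2 alone, the same for both omissions, with no spread from the mutant lines. In the wild-type comparison 0 probe sets passed with or without the pairing by line, so it had no call to change. For the change in each line, the 126 probe sets past 1 log2 unit in both lines became 704 (335 higher and 369 lower) past 0.58, by construction.

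Of 188 genes examined, 176 kept their sign in every setting. Many of them had been picked for a small p or for moving past 1 log2 unit in both lines. Dropping the block, the other groups or dim probe sets, or changing the variances, cannot alter the difference in this balanced design. Only normalization or leaving out 1 of the 4 compared arrays could reverse a sign. In the other 12, the sign reversed only when 1 array was left out, and their lowest and highest values were -1.76 and 1.87 for AT4G36500, -1.71 and 1.31 for LTI30, -0.35 and 3.87 for STZ, -2.28 and 0.19 for WRKY53, -1.11 and 0.028 for AGL104, -0.82 and 0.09 for AT3G10040, -0.59 and 0.32 for PDC2, -0.54 and 0.44 for ATHSP22.0, -0.14 and 0.56 for LHCB4.2, -0.27 and 0.81 for GI, -0.33 and 0.25 for AUR1, and -0.36 and 0.28 for AUR2. With 2 lines per construct, the number of arrays limits what can pass.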

Other observations

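Other gene groups from 90 to 240 min with wild-type KLU were mixed or small, and 0 of their members passed the threshold. Serine carboxypeptidase-like genes had 5 of 29 lower at an unadjusted p under 0.05 (17.2%, against 6.85% of all probe sets) and 0 higher, led by SCPL27 at -0.88, and with mutant KLU 11 were lower in both lines and 4 higher. Tetraspanins, membrane proteins that organise signalling partners, had 9 of 15 lower in both lines (60%, against 30.1% of all probe sets) and 1 higher, with TET10 at -0.86, and 6 lower and 1 higher with mutant KLU. AGAMOUS-like MADS genes had 15 of 40 lower in both lines (37.5%, near the 30.1% of all probe sets) and 6 higher, and with mutant KLU 14 lower and 7 higher. Cytochromes P450 had 10 of 23 higher (43.5%, against 30.1%) and 5 lower in both lines, with CYP71B28 at 0.95 and CYP71B22 at -1.08. Tau glutathione transferases had 2 of 11 lower at an unadjusted p under 0.05, GSTU26 at -0.70 and GSTU18 at -0.49. Beta glucosidases had 1 of 20 lower at that level (5%), BGLU40 at -0.95, and bZIP factors 1 of 14 (7.14%), bZIP42 at -0.81. The shares of beta glucosidases and bZIP factors lie near the 6.85% of all probe sets and are not a result about them.

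Among the hormone genes, ARR15, a response regulator that dampens cytokinin signalling, differed by -0.47 and RR16 by -0.49. The gibberellin receptor genes went different ways, GID1A by 0.38 and GID1B by -0.32, and this list had 5 of 29 genes measured and a median of -0.32, or -0.19 without the line 4-3 array at 90 min. Of 7 measured flavonoid and phenylpropanoid genes 4 were lower in both lines (57.1%, against 30.1% of all probe sets). Among them were UGT78D1 at -0.80 and CHIL, an enhancer of flavonoid synthesis, at -0.88 (-0.33 in line 3-1 and -1.42 in line 4-3). With mutant KLU 4 of the 7 were also lower in both lines (against 25.2% of all probe sets) and 0 higher. The list's median was -0.245 with mutant KLU and -0.175 with wild-type KLU. SHN3, a regulator of wax and cuticle, was the 1 measured gene of its list and differed by -0.54. Of 4 measured fermentation genes, PDC2, a pyruvate decarboxylase, had risen by 2.70 at 90 min (adjusted p 0.012 by limma) and differed by only -0.14 afterwards. Of 3 measured cell cycle genes PRL, a subunit of the replication helicase, differed by -0.52, and the Aurora kinases AUR1 and AUR2 by -0.04 each. LHCB4.1 and LHCB4.2, light-harvesting proteins, differed by 0.24 and 0.21 beside PORB. The clock gene GI differed by 0.27, the small heat shock gene ATHSP22.0 by -0.05 and the tapetum regulator AMS by 0, each the 1 measured gene of its list. The low energy and floral organ identity lists had 0 measured genes.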
